A study of Mus musculus with 69 samples.

Results

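KO VSMC are cultured aortic smooth muscle cells of mice in which Egfr, the gene of the epidermal growth factor receptor, was deleted in smooth muscle. The comparison described here sets 4 libraries of KO VSMC exposed to angiotensin II plus a catecholamine (AII + NA) against the 4 Control libraries of the same animals, paired by the sample group in the labels (sets 5 to 8, 1 male C57BL/6 mouse each). These are 8 of the 69 libraries of the series. All 15 KO VSMC libraries were fitted together: 4 Control, 4 AII + NA, 4 with high glucose and free fatty acids (HG + FFA) and 3 with all stressors (ALL). The ALL library of set 5 was not analysed here.

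The animals carried floxed Egfr alleles and Cre recombinase under the SM22 promoter. WT VSMC came from 4 other male C57BL/6 mice (sets 1 to 4) with Egfr intact. Cells of thoracic and abdominal aorta were expanded for up to 7 passages in medium with serum and bFGF and were kept without serum for 24 h. They then stayed 24 h in the same medium alone (Control) or with 30 nM angiotensin II and 300 nM of a catecholamine. The labels name this agent epinephrine in the protocol and NA in the treatment, and the methods of the study name it norepinephrine. HG + FFA means 20 mM glucose and free fatty acids, oleate and palmitate at 100 µM each, and ALL combines both treatments. All VSMC libraries carry the same batch label. Each genotype rests on 4 animals, so the deletion and other differences between the cultures cannot be told apart.

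Angiotensin II acts on smooth muscle mainly through AT1 receptors, which couple to Gq proteins, phospholipase C and calcium release. Norepinephrine acts on alpha-1 receptors through the same kind of G protein and on beta receptors through cAMP. Both receptor systems can also activate EGFR indirectly, when membrane proteases (sheddases) release EGFR ligands such as HB-EGF from the cell surface, a step called transactivation. Calcium and RhoA signals drive contraction and, through the factor SRF and its cofactors, genes of the contractile apparatus. The comparison asks which transcripts differ under the hormones in cells of Egfr-deleted animals.

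The 8 libraries held 23238979 to 35120866 counts. Levels are given as FPM, the CPM of edgeR with TMM-scaled library sizes, and differences as log2FC with the standard error of the edgeR fit. Egfr checked the labels. Its mean over the treatments was 35.8, 1.21, 0.940 and 1.81 FPM in sets 5 to 8, against 339 ± 84.7 FPM (SD, n = 4 sets) in WT VSMC. Every KO set thus lay below every WT set (log2 difference of -6.73, two-sided exact permutation test p = 0.0286, the smallest that 4 sets against 4 allow). Set 5 stood at 10.5% of the WT mean and the other sets at 0.277% to 0.532%. The summed fibroblast markers were also highest in set 5 (3012 FPM in Control, against 330 to 973 FPM in the other sets), as were the leukocyte markers (125 against 17.2 to 38.3 FPM) and the Schwann cell markers (31.9 against 2.35 to 3.35 FPM). Smooth muscle markers summed to 2971 FPM in set 5 and to 979 to 1936 FPM in the other sets in Control, most of it Acta2, and Tagln was low in KO VSMC (2.77 to 10.4 FPM). Endothelial markers summed to at most 9.72 FPM, also in set 5, and adipocyte markers were at or near 0. Pericyte markers were instead highest in set 6 (552 FPM in Control, against 121 FPM in set 5). Mesothelial markers were lowest in set 5 (5.41 FPM, against 17.7 to 55.8 FPM in the other sets).

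Under AII + NA, no gene of KO VSMC was called at the study's criteria, an FDR under 0.05 in both edgeR and DESeq2, a |log2FC| of at least 0.64 and a mean of at least 3 FPM. That is 0% of the 17538 genes tested. The smallest FDR in edgeR was 0.239. At an unadjusted p under 0.05, 688 genes were higher (3.92%) and 1023 lower (5.83%), together 1711 where 876.9 would be 5% of the genes. DESeq2 gave 11 genes an FDR under 0.05, and 7 of these met the criteria on size and level (0.0399%), among them Itga8, Rasl11b, Bmp3, Cemip, Adcy1 and Erdr1x. The result depended on the sets used. Without set 5, 3939 genes had an unadjusted p under 0.05 in edgeR (smallest FDR 0.0698) and 1544 an FDR under 0.05 in DESeq2, and without set 7 or set 8, 461 and 460 genes had such a p.

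The sets moved by different amounts. Over 12278 genes, the SD of the log2 ratio of AII + NA to Control was 0.161 in set 5, 0.213 in set 6, 0.353 in set 7 and 0.529 in set 8. Across these genes the ratios of sets 7 and 8 correlated with r = 0.58, those of set 6 with r = 0.15 and 0.21, and those of set 5 with r = -0.02 to -0.26, as a description, since genes are not independent. In total 947 genes were higher and 796 lower in all 4 sets, 14.2% of the genes.

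These ratios also followed transcript length. Spearman's rho between the log2 ratio and the length of the longest transcript was -0.28, 0.24, 0.42 and 0.53 in sets 5 to 8 across 12268 genes. With GC content rho was 0.19, 0.18, -0.49 and -0.35 in the same sets, larger in size than with length in set 7. In set 8 the shortest of 10 equal groups of genes by length (median 1042 bases) had a median log2 ratio of -0.58 and the longest a median of 0.49, and in set 5 the same groups had 0.08 and -0.06. The 77 ribosomal protein genes, whose transcripts are short, summed in set 8 to 13% of the TMM-scaled library size in Control and 7.24% under AII + NA. Set 8 also stood at 7.09% under HG + FFA, without hormones, and at 8.67% under ALL. In set 5 they summed to 4.27% in Control, 4.43% under AII + NA and 5.33% under HG + FFA. Genes with an unadjusted p under 0.05 had a median length of 5807.5 bases where higher and 2393 bases where lower, against 3763 bases over all genes. The part of this trend in the differences was not tested directly, but a fit that removes each library's trend over length and GC content is given beside the results.

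**Figure D1:**
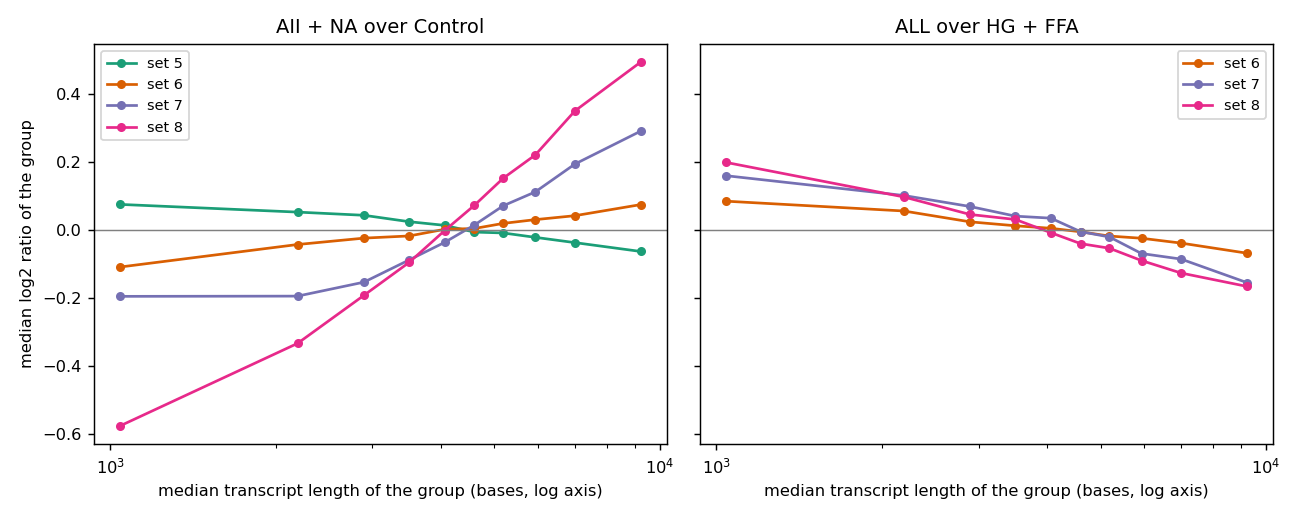
Median log2 ratio (vertical axis) of genes in 10 equal groups by transcript length (horizontal axis, bases, log axis) for AII + NA over Control in sets 5 to 8 on the left and ALL over HG + FFA in sets 6 to 8 on the right. The ratios climb with length in sets 6 to 8 on the left, most in set 8, and fall slightly in set 5, and on the right they fall in all 3 sets.

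Described next are 9 of the 10 genes with the smallest p among those higher in all 4 sets and 9 of the 10 among those lower in all 4 sets, so direction and p served to choose them and are no finding. Of the higher genes, Rcan2, Cemip, Bmp3 and Map3k7cl had the smallest FDR in edgeR, 0.239, and the other genes described had 0.509.

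Cemip (ENSMUSG00000052353, chr7:83582065-83735724, mm39), a hyaluronan-degrading protein, stood at 202, 291, 575 and 96.7 FPM in the Control libraries of sets 5 to 8 and at 318, 464, 846 and 217 FPM under AII + NA. Its log2FC was 0.75 ± 0.14 (SE, n = 4 pairs, DESeq2 FDR 0.000702). The levels of the sets overlapped between the conditions, while every set was higher than its own Control.

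Rcan2 (chr17:44112216-44350407), an inhibitor of the calcium-dependent phosphatase calcineurin, stood at 48.2, 112, 118 and 30.4 FPM in Control and at 71.5, 175, 154 and 57.7 FPM under AII + NA. Its log2FC was 0.62 ± 0.11 (DESeq2 FDR 0.000487), with set ratios from 0.38 in set 7 to 0.92 in set 8. The related calcineurin regulator Rcan1 had a log2FC of -0.06 ± 0.10 with a 95% confidence interval of -0.26 to 0.14.

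Itga8 (chr2:12110900-12307214), an integrin alpha chain of smooth muscle, stood at 54.6, 18.6, 24.7 and 29.0 FPM in Control and at 59.6, 38.4, 45.5 and 71.8 FPM under AII + NA (log2FC 0.83 ± 0.17). Set 5, the highest in Control, moved least. Bmp3 (chr5:99002268-99032255), a ligand of the TGF-beta superfamily, stood at 17.8, 5.31, 4.86 and 24.7 FPM and under AII + NA at 27.5, 6.97, 11.1 and 38.3 FPM (log2FC 0.70 ± 0.12). Map3k7cl (chr16:87350202-87393821) stood at 6.05, 10.9, 18.8 and 15 FPM and at 9.94, 16.2, 25.0 and 23.8 FPM (log2FC 0.59 ± 0.11). For these genes too the conditions overlapped across sets and differed within each set.

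The other higher genes were Adcy1, a calcium-stimulated adenylyl cyclase (log2FC 0.81 ± 0.18), Rasl11b, a small GTPase of the Ras group (0.70 ± 0.16), Adarb1, an enzyme that edits adenosines in RNA (0.52 ± 0.13), and Lox, which crosslinks collagen and elastin (0.44 ± 0.10). Adcy1 rested on low levels, 1.42 to 9.67 FPM in Control and 2.88 to 17.3 FPM under AII + NA. Lox stood at 543 to 1156 FPM in Control and at 813 to 1711 FPM under AII + NA.

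**Figure D2:**
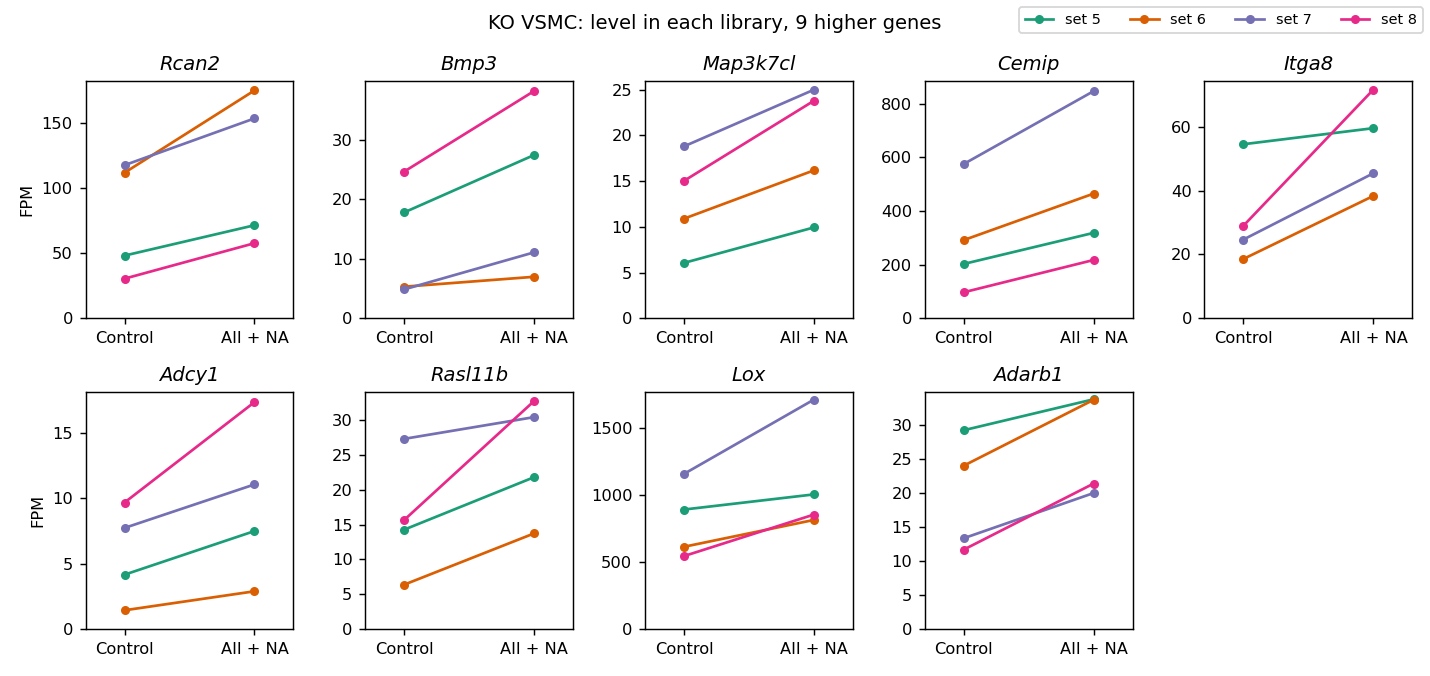
Level (FPM, linear axis from 0) of 9 higher genes in the Control and AII + NA libraries of KO VSMC, with a line joining the libraries of each set. Every line runs upward, as the choice of genes requires, and the sets start from different levels, as for Cemip with 96.7 to 575 FPM in Control.

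For 6 of these 9 genes the RefSeq table held promoter windows (GRCm38.p6, 300 bases, from 250 before to 50 after the start of transcription), 8 windows in all. They were searched on both strands for TGANTCA (AP-1), GGAATG (TEAD), TGACGT (the core of the cAMP response element) and the CArG box of SRF, which 7.81%, 14.7%, 7.51% and 1.63% of 32851 windows of the same length hold. TGANTCA was in 1 window of Rcan2, GGAATG in that of Rasl11b and TGACGT in that of Adarb1, and the CArG box was in none of the 8. The 3 windows with a match are shown with the match in capitals, since they belong to genes that were higher together. The Rcan2 window is chr17:43952749-43953048 (+), the Rasl11b window chr5:74195076-74195375 (+), and the Adarb1 window chr10:77418224-77418523 (-), where the match lies on the other strand.
Rcan2: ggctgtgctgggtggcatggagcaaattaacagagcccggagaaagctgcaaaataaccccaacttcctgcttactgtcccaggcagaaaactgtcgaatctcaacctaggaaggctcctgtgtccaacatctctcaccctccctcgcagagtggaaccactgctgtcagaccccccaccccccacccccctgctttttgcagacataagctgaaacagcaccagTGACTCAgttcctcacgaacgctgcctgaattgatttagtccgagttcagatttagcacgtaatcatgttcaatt
Rasl11b: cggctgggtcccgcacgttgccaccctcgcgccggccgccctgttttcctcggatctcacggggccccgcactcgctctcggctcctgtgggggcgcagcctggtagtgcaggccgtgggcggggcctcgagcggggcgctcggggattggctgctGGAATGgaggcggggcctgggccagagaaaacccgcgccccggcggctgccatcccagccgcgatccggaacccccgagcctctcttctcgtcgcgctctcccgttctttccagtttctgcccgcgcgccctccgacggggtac
Adarb1: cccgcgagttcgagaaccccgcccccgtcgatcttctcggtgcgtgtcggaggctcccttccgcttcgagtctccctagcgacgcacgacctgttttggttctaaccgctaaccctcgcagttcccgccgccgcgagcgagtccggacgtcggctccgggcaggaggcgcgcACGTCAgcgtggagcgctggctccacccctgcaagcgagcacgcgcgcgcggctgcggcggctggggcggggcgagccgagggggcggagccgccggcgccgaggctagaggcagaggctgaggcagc
A match is a description of the letters and not a bound site.

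Among the lower genes, Dut (which removes dUTP), Nudt1 (which removes oxidised nucleotides) and Gins2 (a subunit of the replicative helicase) serve nucleotide metabolism or DNA replication. Dut (chr2:125089110-125100966) stood at 43.9, 55.6, 47.1 and 38.9 FPM in Control and at 42.3, 40.9, 34.9 and 26.0 FPM under AII + NA (log2FC -0.38 ± 0.10). Set 5 moved least. The log2FC was -0.46 ± 0.13 for Nudt1 and -0.44 ± 0.13 for Gins2.

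Erdr1x (chrX:168792690-168801793) stood at 5.07, 2.35, 19.9 and 74.6 FPM in Control and at 4.38, 1.39, 9.32 and 37.3 FPM under AII + NA (log2FC -0.81 ± 0.18, DESeq2 FDR 0.0499). It belongs to a multi-copy family, so its counts may be split between copies. The remaining lower genes were Nicol1 (-0.69 ± 0.18), Gcat, an enzyme of threonine breakdown (-0.90 ± 0.23), Neurl2 (-0.49 ± 0.13), Gemin2, of the complex that assembles spliceosomal RNPs (-0.47 ± 0.12), and Imp3, a factor of ribosomal RNA processing (-0.41 ± 0.11). Exons of other genes overlap 67.3% of the exonic bases of Gins2, 45.9% of Neurl2, 40.5% of Gcat and 29.7% of Nicol1, and the strand setting of the counting is not stated, so these values are uncertain. The 9 lower genes had a median transcript length of 1396 bases and the 9 higher genes of 6651 bases.

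With the trend over length and GC content removed, no gene was called either (0 of 17538, smallest FDR 0.102, 1624 genes with an unadjusted p under 0.05, DESeq2 26 genes with an FDR under 0.05). Cemip (log2FC 0.67), Rcan2 (0.63) and Map3k7cl (0.60) then had the 3 smallest p-values of all genes. Erdr1x ranked 13 (-0.65), while Imp3 (-0.25) and Nudt1 (-0.28) fell to ranks 80 and 368, and the values of Nicol1 and Neurl2 were -0.43 and -0.29.

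The same hormones were also given on top of HG + FFA, in libraries outside the contrast above, though from the same animals and fitted in the same model. ALL against HG + FFA in sets 6 to 8 called no gene (0%), with 187 genes higher (1.07%) and 323 lower (1.84%) at an unadjusted p under 0.05 and none at an FDR under 0.05 in DESeq2. Of the 9 higher genes, 7 were again higher, against 44.2% of all genes above 0 in the first comparison. Of the 9, 1 had an unadjusted p under 0.05 in the edgeR fit, Map3k7cl (log2FC 0.31, p = 0.0158), as had 97 of 8990 genes above 0 with the same direction. Adcy1 (-0.09) and Adarb1 (-0.13) had the opposite sign. Of all 688 genes higher at an unadjusted p under 0.05 in the first comparison, 41.4% were again higher, and of the 1023 lower ones 33.2% were again lower. Of the 9 lower genes, 3 were again lower, against 45.4% of all genes below 0, and only Erdr1x had such a p (log2FC -0.46, p = 0.0416). Of the 8548 genes below 0, 130 had such a p with the same direction. In these pairs the trend over length ran the other way, with rho of -0.26, -0.37 and -0.34 in sets 6 to 8. Averaged over both backgrounds, the hormone effect gave no call (0%), and DESeq2 alone called 2 genes (0.0114%), among them Lrrn3.

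In WT VSMC, which share no library with KO VSMC, the same comparison called 7 genes (0.0414% of 16905), with 4.97% of genes higher and 4.44% lower at an unadjusted p under 0.05. The study itself reported more genes for AII + NA in WT VSMC, and why the counts differ was not tested. All 9 higher genes of KO VSMC were higher in WT VSMC, against 40.2% of all genes above 0 that kept their direction. Each of the 9 had an unadjusted p under 0.05 there (edgeR), as had 511 of 8506 genes above 0 with the same direction. Of the 669 genes higher at such a p in KO VSMC, 163 were higher at such a p in WT VSMC. Itga8 had a WT log2FC of 1.62, Map3k7cl of 2.07 and Rcan2 of 1.09. Of the 9 lower genes, 2 were lower in WT VSMC (46.5% of all genes below 0 kept their direction), Gcat (-0.21) and Dut (-0.03), and 0 of them had such a p, beside 280 of 8063 genes below 0. Of the genes past an unadjusted p of 0.05 in KO VSMC, 55.0% of 669 higher and 34.1% of 1003 lower genes tested in WT VSMC kept their direction there.

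**Figure D3:**
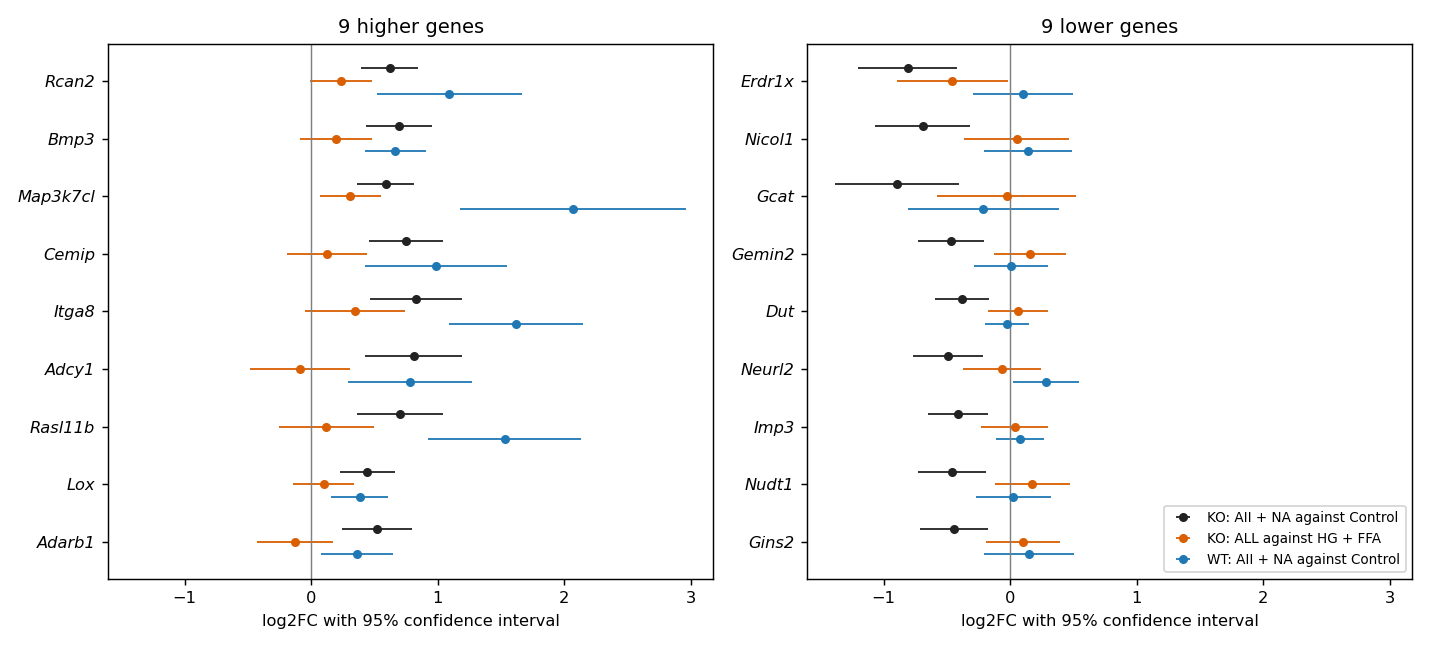
Log2FC (horizontal axis) with its 95% confidence interval for 9 higher genes on the left and 9 lower genes on the right, for AII + NA against Control in KO VSMC, ALL against HG + FFA in KO VSMC, and AII + NA against Control in WT VSMC. All WT values of the higher genes lie to the right of 0, and those of the lower genes lie around 0, as for Dut with -0.03.

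The difference between the genotypes was tested in a joint fit of all 31 VSMC libraries. No gene reached an FDR under 0.05 (0% of 18339, smallest FDR 0.395, DESeq2 0 genes), and at an unadjusted p under 0.05 the effect was higher in WT VSMC for 1270 genes (6.93%) and lower for 912 (4.97%). For Bmp3 the effect in WT minus that in KO was -0.02 with a 95% confidence interval of -0.36 to 0.32, for Lox -0.05 (-0.35 to 0.25) and for Cemip 0.24 (-0.42 to 0.91). Differences of Map3k7cl (1.49, 0.51 to 2.47, p = 0.00433 in edgeR), Rasl11b (0.84, 0.10 to 1.58) and Itga8 (0.79, 0.12 to 1.47) had intervals above 0 before adjustment.

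Of the 7 genes called in WT VSMC, Rgs3, which shortens G protein signals, had the smallest p for the difference between the genotypes. In WT VSMC it stood at 47.5, 47.4, 49.6 and 43.0 FPM in Control and at 78.9, 96.0, 66.3 and 93.0 FPM under AII + NA (sets 1 to 4, FDR 0.0229). In KO VSMC it stood at 39.4, 37.0, 53.6 and 49.5 FPM and at 46.4, 43.2, 47.4 and 37.5 FPM, higher in 2 sets and lower in 2. The KO log2FC was -0.04 with a 95% confidence interval of -0.29 to 0.22, and the difference from WT was 0.87 ± 0.18 (unadjusted edgeR p = 5.68e-05, FDR 0.395). Its sign in KO VSMC turned in fits without set 7, without set 8 and with the length and GC correction.

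The other genes called in WT VSMC had positive values in KO VSMC. Hdac9, a histone deacetylase of muscle cells, had a log2FC of 0.71 ± 0.20 in KO and 1.62 in WT VSMC (difference 0.91, p = 0.00947 in edgeR). Ramp1, a partner of the CGRP receptor, had 0.87 ± 0.43 at 0.231 to 2.1 FPM in KO VSMC and 2.84 in WT VSMC (difference 1.96, p = 0.00673). Its KO value was 0.41 without set 8 and 1.55 without set 7, where it was lower (log2 ratio -0.64). Agtr1b, Mylk, Itga8 and Bmp3, described in their own groups, complete the 7.

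A list of 15 genes held the receptors for the hormones and also Agtrap, Atp6ap2 and Mas1. Of these 15, 11 were tested, and 2 were higher and 1 lower at an unadjusted p under 0.05, beside 3.92% and 5.83% of all genes (median log2FC 0.07, against 0.01 over all genes). Without set 5, 1 of 10 was higher and none lower, in a fit where 11.4% of all genes were higher and 12.1% lower. Without set 7, 3 of 11 were higher and 1 lower (1.27% and 1.33% of all genes). Without set 6 (2.24% and 5.19%) and without set 8 (1.34% and 1.26%), 2 were higher and 1 lower. Agtr1a, the main AT1 receptor gene of the mouse, was scarce in KO VSMC, with 1.70, 0.47, 0.10 and 0.51 FPM in Control of sets 5 to 8 and 3.73, 0.47, 0.69 and 1.94 FPM under AII + NA. It rested on 276 counts in the 8 libraries together, 3 to 114 in each. Its log2FC was 1.31 ± 0.39 (unadjusted edgeR p = 0.00389), higher in 3 of 4 sets. In Control, WT VSMC stood at 11.5 ± 5.04 FPM (SD, n = 4), above every KO set (log2 difference of -4.15, two-sided exact permutation test p = 0.0286, 0.19 after adjustment over 10 genes of the list, where 1 separated gene alone cannot reach 0.05).

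Agtr1b, the second AT1 gene, stood at 1.22, 1.15, 2.12 and 4.72 FPM in Control and at 2.58, 1.56, 3.42 and 5.54 FPM under AII + NA, higher in 4 of 4 sets (log2FC 0.61 ± 0.23, p = 0.0191 in edgeR). Its WT log2FC was 1.44 and the difference between the genotypes 0.84 (p = 0.0112). Agtr2, the AT2 receptor gene, stood at 11.1, 0.08, 0.13 and 2.27 FPM in Control and at 6.14, 0.03, 0.09 and 1.33 FPM under AII + NA (log2FC -0.81 ± 0.30, WT -1.04). Most of its signal came from set 5, the set with the highest Egfr level.

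Per kilobase of exon, Adra1d, an alpha-1 receptor gene, was the most abundant adrenergic receptor in KO Control at 17.7 FPM per kb, against 2.68 for Adra1b and 0.308 FPM per kb for Adrb3. Agtr2 (0.988), Agtr1b (0.952) and Agtr1a (0.151) came below Adra1b in these means over the sets, but in set 5 Agtr2 and in set 8 Agtr1b lay above Adra1b, and Agtr2 lay above Agtr1b in set 5 alone. Adra1a had no count in these libraries. Adra1d ranged from 13.4 to 110 FPM in Control, and its difference under AII + NA was 0.15 (95% confidence interval -0.15 to 0.45). For Agtr1a alone did the KO and WT sets not overlap among the genes plotted.

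**Figure D4:**
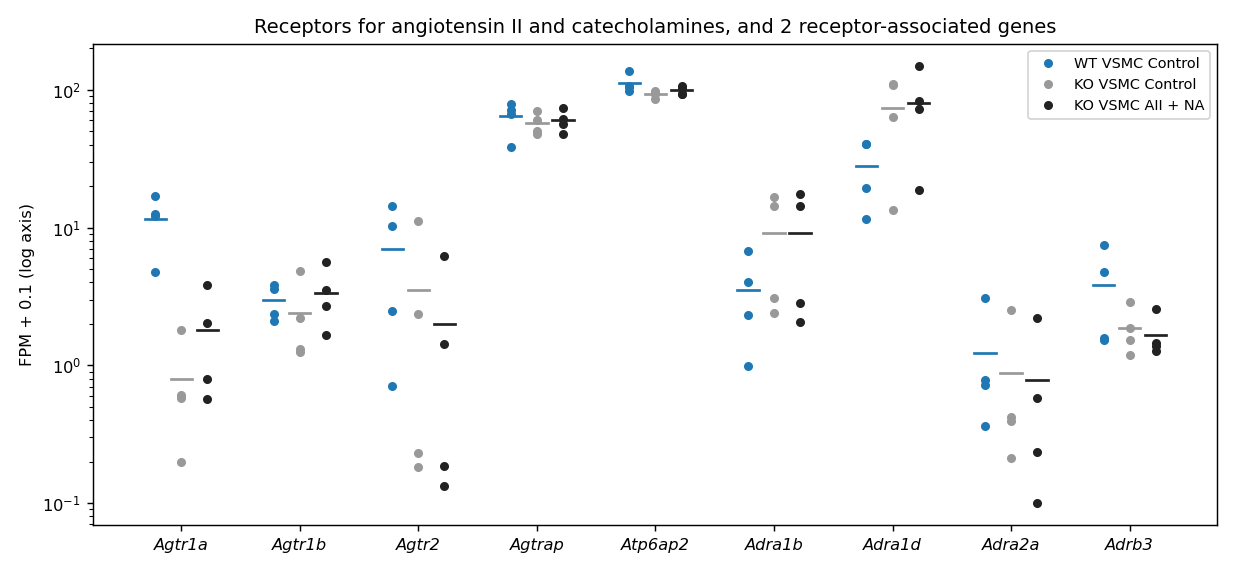
Level of receptor genes and of the receptor-associated genes Agtrap and Atp6ap2 (FPM + 0.1, log axis) in Control libraries of WT VSMC and in Control and AII + NA libraries of KO VSMC, each point a set and each bar a group mean (n = 4). Agtr1a lies at 0.10 to 1.70 FPM in KO Control and at 4.69 to 16.9 FPM in WT Control. For the other genes plotted the KO and WT ranges overlap, though KO points can lie outside the WT range. Adra1d, for example, lies at 13.4 to 110 FPM in KO Control and at 11.4 to 40.1 FPM in WT Control.

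Downstream of the receptors, the members of the signalling lists were mostly not past an unadjusted p of 0.05, beside 3.92% of all genes higher and 5.83% lower. Of 20 genes of G proteins, receptor kinases, arrestins and RGS proteins 1 was higher, Plcb1, the phospholipase C that Gq activates (0.36 ± 0.16, but 0.19 without set 8 and 0.22 with the length and GC correction), and none was lower. Without sets 5, 6, 7 and 8 in turn, 4, 0, 1 and 0 of the 20 were higher and 0, 0, 0 and 1 lower. In those fits 11.4%, 2.24%, 1.27% and 1.34% of all genes were higher and 12.1%, 5.19%, 1.33% and 1.26% lower. Of 24 genes of calcium handling and calcineurin 3 were higher and none lower, with a median log2FC of 0.18. They were Cacna1c, the pore of the L-type calcium channel (0.60 ± 0.17, 38.2, 5.45, 18.9 and 10.7 FPM in Control and 43.9, 8.13, 28.0 and 24.8 FPM under AII + NA), Atp2a2, the calcium pump of the sarcoplasmic reticulum (0.27 ± 0.12), and Nfatc3, a target of calcineurin (0.21 ± 0.10). Without set 8, Atp2a2 had 0.13 and Nfatc3 0.12, and with the length and GC correction 0.16 and 0.10. On top of HG + FFA, Cacna1c had -0.29, Atp2a2 -0.10 and Nfatc3 -0.14. There none of the list was higher and 1 was lower at an unadjusted p under 0.05, beside 1.07% and 1.84% of all genes. Without set 5, 7 of 21 genes of the list were higher and 1 lower, in a fit where 11.4% of all genes were higher and 12.1% lower. Without set 6, 1 of 22 was higher and 1 lower (2.24% and 5.19% of all genes), without set 7, 1 of 25 was higher (1.27%), and without set 8, 1 of 23 (1.34%). With the correction 1 of 24 was higher, beside 4.07% of all genes.

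Of 9 cAMP-responsive genes only Pde3a, a cAMP phosphodiesterase, was past that p (0.43 ± 0.17, and 0.22 with the length and GC correction, where none of the 9 was), and of 8 genes of angiotensin and catecholamine turnover only Maob, a monoamine oxidase (0.22 ± 0.09, 0.14 without set 6). Of 21 immediate early genes Fosl2 (0.35 ± 0.12) and Klf6 (0.29 ± 0.10) were higher and Ier2 (-0.49 ± 0.18) lower, beside 3.92% and 5.83% of all genes, all measured 24 h after the hormones were added. Ier2 had -0.30 without set 8 and -0.26 with the length and GC correction. On top of HG + FFA, Fosl2 had -0.12, Klf6 0.12 and Ier2 -0.03. There none of the 21 was higher and 2 were lower at an unadjusted p under 0.05, beside 1.07% and 1.84% of all genes. Without sets 5, 6, 7 and 8 in turn, 2, 1, 0 and 1 of the 21 were higher and 3, 0, 1 and 0 lower. In those fits 11.4%, 2.24%, 1.27% and 1.34% of all genes were higher and 12.1%, 5.19%, 1.33% and 1.26% lower. With the correction 2 of the 21 were higher and none lower, beside 4.07% and 5.19% of all genes. Egr1 had a log2FC of -0.06 ± 0.16 and Fos of -0.03 ± 0.17.

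Of 13 ErbB receptors, ligands and sheddases tested, Nrg1, a ligand of ErbB3 and ErbB4, was higher at 10.3, 22.6, 23.9 and 23.4 FPM in Control and 13.8, 28.8, 26.8 and 38.0 FPM under AII + NA (0.40 ± 0.11, p = 0.00159 in edgeR, and 0.25 with the length and GC correction). It was the 1 gene of this list past an unadjusted p of 0.05, beside 3.92% of all genes higher. On top of HG + FFA the log2FC of Nrg1 was -0.04 ± 0.12. Hbegf, the ligand named in transactivation, stood at 12.1 to 60.3 FPM in Control and at 10.3 to 34.9 FPM under AII + NA (-0.11 ± 0.18). Erbb2, the common partner of the family, had -0.06 ± 0.08, and Egfr itself 0.32 ± 0.22. Of 13 feedback genes of the ERK pathway Dusp5 was lower (-0.43 ± 0.17, -0.28 with that correction), beside 5.83% of all genes. None was lower without set 6 (5.19% of all genes), without set 7 (1.33%) or with that correction (5.19%), where 1 was higher (4.07%). In WT VSMC 4 of the 13 were higher and none lower, beside 4.97% and 4.44% of all genes. In the joint fit the effect was higher in WT for 4 (2 with that correction) and lower for none, beside 6.93% and 4.97% of all genes. Spry4, with 0.94 in WT VSMC, had 0.12 ± 0.16.

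In KO VSMC, 5 of 20 genes of the contractile apparatus were higher and 1 lower at an unadjusted p under 0.05 (median log2FC 0.14), where 3.92% and 5.83% of all genes were. In WT VSMC 15 of 20 were higher and none lower (median 0.56), where 4.97% and 4.44% of all genes were. In the test of the difference, 9 of 20 were higher in WT and none lower, against 6.93% and 4.97% of all genes, with a median difference of 0.53. None of these passed after adjustment. In bulk RNA, fewer cells of a type and less RNA per cell cannot be told apart.

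Acta2, smooth muscle alpha-actin, stood at 2172, 891, 1675 and 838 FPM in KO Control and at 2316, 1253, 1791 and 907 FPM under AII + NA (log2FC 0.21 ± 0.14), against 1.24 in WT VSMC. Cnn1, calponin, had -0.01 ± 0.19 in KO and 1.03 in WT VSMC. It varied from 7.23 to 353 FPM between the KO sets in Control. The difference between the genotypes was 1.05 for both Acta2 (p = 0.0177 in edgeR) and Cnn1 (p = 0.006), 0.81 for Myl9, a regulatory myosin light chain, and 1.16 for Des, desmin. Des was the lower gene of the list in KO VSMC, at 2.11, 3.80, 2.41 and 0.786 FPM in Control and at 1.54, 2.23, 1.21 and 0.531 FPM under AII + NA (-0.70 ± 0.25, p = 0.0118 in edgeR), and its WT log2FC was 0.45 (95% confidence interval -0.09 to 0.99).

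The contractile genes higher at an unadjusted p under 0.05 in KO VSMC were, beside Itga8, Mylk, Cald1, Actn1 and Lmod1. Mylk, the kinase that activates smooth muscle myosin, stood at 40.7, 12.8, 12.5 and 2.36 FPM in Control and at 47.0, 15, 21.0 and 7.29 FPM under AII + NA (0.60 ± 0.17), and on top of HG + FFA its log2FC was -0.52 (p = 0.0184 in edgeR). Cald1, caldesmon (0.30 ± 0.12), Actn1, alpha-actinin (0.30 ± 0.12), and Lmod1, leiomodin (0.29 ± 0.11), were higher in 4 of 4 sets. Without set 8 Mylk had 0.37 and Actn1 0.18, and without set 6 Lmod1 had 0.18. Vcl, vinculin (0.58 ± 0.28, 95% confidence interval -0.01 to 1.16), Myh11, smooth muscle myosin heavy chain (0.31 ± 0.21), and Synpo2 (0.31 ± 0.18) had values above that of Cald1 but were not past that p. Without sets 5, 6, 7 and 8 in turn, 7, 2, 3 and 3 contractile genes were higher, in fits where 11.4%, 2.24%, 1.27% and 1.34% of all genes were, and 2, 0, 0 and 1 were lower, where 12.1%, 5.19%, 1.33% and 1.26% were. With the length and GC correction 6 were higher and 1 lower, beside 4.07% and 5.19% of all genes. The summed smooth muscle markers were higher in 4 of 4 sets (mean log2 ratio 0.17 ± 0.19, SD, n = 4 pairs, where the two-sided exact sign-flip permutation test cannot reach 0.05), as were the summed pericyte markers (0.21).

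**Figure D5:**
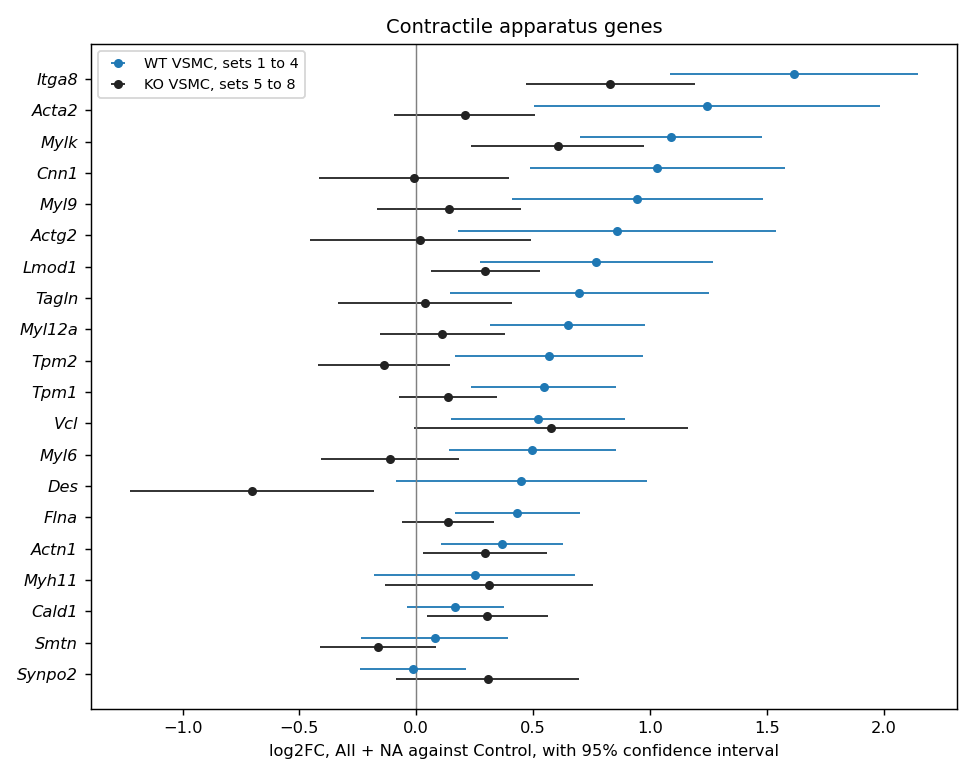
Log2FC of AII + NA against Control (horizontal axis) with its 95% confidence interval for 20 contractile genes in WT VSMC (sets 1 to 4) and KO VSMC (sets 5 to 8). For 15 of the 20 genes the WT interval lies wholly above 0, and among these Acta2 has a KO value of 0.21 and a WT value of 1.24.

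Of 28 matrix and matricellular genes, 8 were higher and 3 lower in KO VSMC at an unadjusted p under 0.05 (median log2FC 0.17), beside 3.92% and 5.83% of all genes. In WT VSMC 10 were higher and 5 lower, beside 4.97% and 4.44% of all genes. Lox belongs to this list and was described above. Tnc, the matricellular protein tenascin-C, stood at 187, 74.4, 656 and 79.4 FPM in Control and at 226, 125, 869 and 188 FPM under AII + NA (0.63 ± 0.17). Thbs1, thrombospondin, stood at 1871, 1408, 1120 and 785 FPM in Control and at 2045, 2021, 1730 and 1666 FPM under AII + NA (0.57 ± 0.17), with set 5 the highest in both conditions. Both were higher in all 4 sets, and their differences between the genotypes were 0.31 (95% confidence interval -0.22 to 0.83) and -0.01 (-0.53 to 0.50).

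Tgfb2, a ligand of the TGF-beta receptors (0.49 ± 0.13), Eln, elastin (0.41 ± 0.16), Ankrd1, a stretch-responsive gene (0.36 ± 0.14), and Ccn1, a secreted matricellular protein (0.30 ± 0.13), were also higher in every set. Timp1, an inhibitor of matrix metalloproteinases, was lower at 387, 464, 368 and 289 FPM in Control and 370, 292, 284 and 152 FPM under AII + NA (-0.53 ± 0.15), as were Spp1, osteopontin (-0.40 ± 0.18), and Tgfb1 (-0.33 ± 0.13). The collagen gene Col1a1 had 0.05 ± 0.14. Without set 8 Ccn1 had 0.19, and with the length and GC correction Tgfb1 had -0.22. Without set 5, 9 of 27 were higher, and without sets 6, 7 and 8 in turn 6, 9 and 6 of 28. In those fits 11.4%, 2.24%, 1.27% and 1.34% of all genes were higher. In the same fits 3, 3, 2 and 1 of the list were lower, where 12.1%, 5.19%, 1.33% and 1.26% of all genes were. With the correction 10 were higher and 3 lower, beside 4.07% and 5.19% of all genes. On top of HG + FFA 2 of 28 were higher and none lower (median log2FC -0.07), beside 1.07% and 1.84% of all genes. In the joint fit the effect was higher in WT for 3 of 28 and lower for 2 at an unadjusted p under 0.05, beside 6.93% and 4.97% of all genes, and none passed after adjustment. Ankrd1 was among them (WT 1.62, difference 1.29).

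Of 18 cell cycle genes none was higher and 4 were lower at an unadjusted p under 0.05, beside 5.83% of all genes. They were Ccne1, a cyclin of S phase entry (-0.36 ± 0.12), the helicase subunits Mcm2 (-0.35 ± 0.13) and Mcm5 (-0.35 ± 0.16), and Pcna, the sliding clamp of DNA polymerase (-0.25 ± 0.10). Pcna stood at 30.0, 86.8, 62.1 and 47.5 FPM in Control and at 28.3, 60.7, 55.0 and 41.2 FPM under AII + NA. Mcm5 was lower in 2 sets and higher in 2, with -0.21 without set 6 and -0.23 without set 7, and Ccne1 had -0.23 with the length and GC correction. Mki67, a marker of cycling cells, had 0.06 ± 0.27. Without set 6, whose Control library held the highest levels of Mki67, Mcm2, Mcm5 and Pcna, none of the 18 had an unadjusted p under 0.05 in either direction, beside 5.19% of all genes lower in that fit. Without sets 5, 7 and 8 there were 6, 1 and 5 lower, beside 12.1%, 1.33% and 1.26% of all genes. Of 12 inflammatory and oxidase genes only Cyba, a subunit of NADPH oxidases, had an unadjusted p under 0.05 (-0.34 ± 0.15), beside 5.83% of all genes lower. Its value was -0.16 without set 8 and -0.15 with the length and GC correction, and none of the 12 had such a p in either fit. Of SRF and its cofactors (6 genes) none had such a p, with 2 higher in WT VSMC, beside 4.97% of all genes.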

How the data were processed

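Per the labels and the study's methods, the authors sequenced poly(A) RNA of cultured VSMC, aligned the reads to mm39 with HISAT2 2.1.0, assigned them to genes with featureCounts, counting reads with several alignments, and deposited raw counts per gene for each library. The strand setting is not given in the sources used here. Multi-mapping reads can inflate or share counts between near-identical genes.

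From these counts of 56953 genes, the 15 KO VSMC libraries were fitted with treatment and set as terms. The tools were edgeR 4.0.16 (R 4.3.3, TMM, filterByExpr, quasi-likelihood test) and DESeq2 1.42.0. The Benjamini-Hochberg adjustment ran over all genes tested in edgeR. DESeq2 gave no FDR to 5441 of these genes for AII + NA against Control, among them Agtr1b, Agtr2, Ramp1 and Gcat. Joint and WT fits were made alike, and fits were tested on simulated data. Gene names, positions and lengths came from a GRCm39 annotation, which lacks the identifiers of 0.024% of the counts. Single FPM values were compared as log2(FPM + 0.1). Intervals cover 95%. Figures were drawn with Python 3.11.15 and matplotlib 3.10.9.

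Sets pair the libraries, since each set came from 1 animal. Within a set the departures of Control and AII + NA libraries from their group means correlated with r of 0.76 to 0.88 over 13986 genes. P-values of the fits measure how much libraries still vary once the level of each set and treatment is removed. This spread was estimated over all libraries of a fit, with information shared between genes, and rests on 4 animals per genotype.

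The members, gene lists and the rule for named genes were chosen with earlier results of these data known. Named were the 10 higher and 10 lower genes with the smallest p among protein-coding and lncRNA genes that moved one way in all sets at a mean of 3 FPM or more, the genes called in WT VSMC, the receptors, and list members with an unadjusted p under 0.05. Results of some genes are not reported here. Other genes named for contrast were chosen after their values were seen. Alternatives were each tool alone, other size factors, no filter, no block, other thresholds, fewer libraries, each set left out and, chosen after seeing the data, a correction for transcript length and GC content by per-library splines.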

Additional observations from a re-analysis of the deposited data

Results flagged for a closer look

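Of 61 groups of 4 values looked at, 1 held a value far from the other 3, and chance alone gives about 1 in 20. The mean Egfr level of set 5, 35.8 FPM, stood apart from the other KO VSMC sets. What lies behind this value was not tested.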

How the results depend on the processing

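No alternative that kept the filter and both tools called a gene for AII + NA against Control, for ALL against HG + FFA or for their mean. Leaving out each set in turn gave 0 calls each time. DESeq2 alone called 7 genes for AII + NA and 2 for the mean hormone effect. Without filterByExpr, edgeR and DESeq2 called 13 genes and 2 genes, and 350 genes had an FDR under 0.05 for WT minus KO, against 0 with the filter. Without the filter edgeR's median degrees of freedom went to 259048, against about 15.5 with the filter and the other size factors, so it assumed nearly one spread for all genes. Without the replicate block 0 genes were called and 278 had an unadjusted p under 0.05, against 1711 with the pairing by set. Of 54 single genes, 53 kept their sign throughout. The log2FC fell below its reported size by over 1.5 times for 10 of them without set 8 and for 15 with the length and GC correction. Rgs3 ranged from -0.14 to 0.072 over fits without one set, turned positive without replicate 7 (0.01), without replicate 8 (0.072) and with the length and GC correction (0.0038), and the cause was not tested. The smallest FDR was 0.102 with that correction and 0.0698 without set 5. Low levels limit Agtr1a, Agtr2, Ramp1 and Gcat.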

Other observations

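Nrg1 and the 2 AT1 receptor genes shared their direction in both genotypes. The log2FC of Nrg1 was 0.40 in KO (0.25 with the length and GC correction) and 0.50 in WT VSMC (difference 0.11, 95% confidence interval -0.31 to 0.53), that of Agtr1a 1.31 and 0.91, and that of Agtr1b 0.61 and 1.44. These are values of AII + NA against Control. On top of HG + FFA in KO VSMC, Nrg1 had -0.04, Agtr1a 0.61 and Agtr1b 0.48. Neurl2 went the other way in the genotypes, with -0.49 in KO and 0.28 in WT VSMC (difference 0.78 ± 0.18, unadjusted edgeR p = 0.0002, FDR 0.395), and -0.29 in KO with the length and GC correction, on a gene whose exons overlap another gene over 45.9% of their bases. Neurl2 was chosen for its low KO values, and the same values enter this difference, so its p-value is no independent test. Nox4, an oxidase catalytic subunit, had 0.33 ± 0.17 in KO and -0.35 in WT VSMC.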
